A study of Mus musculus with 24 samples.

Results

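The 10 genes described here are products and regulators of the hypertrophic chondrocyte, the enlarged cell that ends the life of a chondrocyte in growing cartilage. They were taken by symbol from the table of 52178 mouse genes, and all 10 were found once and passed the filter on low counts. Their type X collagen gene, Col10a1, was among the most abundant of them in hip cap cartilage and the least abundant in metatarsals. With no pressure applied, 8 of the 10 were higher in hip caps, against 14.6% of all genes tested. None of the 10 passed the test for a response to pressure in either tissue, where at most 5.5% of all genes passed in any comparison. At 50 MPa the log2 fold change of Mmp13 was 1.47 (SE 0.67) in hip caps and -1.56 (SE 0.45) in metatarsals. Neither change passed, and their difference was just outside the threshold (edgeR quasi-likelihood test, adjusted p = 0.0648). Of the hip cap libraries left out of the tests, the control had more Mmp13 than every pressed library. The 50 MPa library left out had less than all controls tested.

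RNA was sequenced from cartilage explants of C57/Bl6 mice (C57/BL6J in the methods of the study), in 6 groups of 4 libraries. Hip caps (articular cartilage of the femoral head) came from 4-week-old males, and each library pooled 2 hip caps. Metatarsals (growth plate cartilage rudiments) came from embryos at embryonic day 15, whose sex is not given, and each library pooled 6 of them. Explants were cultured for 24 h, held for 1 h at 0 MPa (control), 5 MPa or 50 MPa of hydrostatic pressure, the last 2 chosen as a physiological and an injurious load, and cultured for 24 h more. Metatarsals, but not hip caps, were kept in medium with ascorbate and β-glycerophosphate, so tissue, age, medium and number of pooled explants changed together and cannot be told apart. Whether numbered libraries of a group came from separate animals is not stated for metatarsals, so p-values measure the spread between these libraries only.

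During endochondral growth, chondrocytes leave the cell cycle, swell and switch from type II to type X collagen. RUNX and MEF2 transcription factors drive this switch, parathyroid hormone-related protein and HDAC4 hold it back, and the hypertrophic cell then releases matrix vesicles, collagenase and vascular endothelial growth factor before bone replaces it. Articular cartilage normally stays out of this programme, and hypertrophic markers in it are widely used as a sign of osteoarthritis.

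Among the members, Col10a1 (chr10:34389981-34397085, plus strand) encodes type X collagen and Mmp13 (chr9:7272514-7283331, plus strand) encodes the collagenase that cuts type II collagen. Spp1 (chr5:104435118-104441050, plus strand) encodes osteopontin, a phosphoprotein of mineralizing matrix, and Alpl (chr4:137741733-137796384, minus strand) encodes tissue-nonspecific alkaline phosphatase, which frees phosphate for mineral. Panx3 (chr9:37659902-37669235, minus strand) encodes a channel protein and Vegfa (chr17:46016993-46032369, minus strand) the growth factor that draws in vessels. Runx2 (chr17:44495987-44814797, minus strand), Runx3 (chr4:135120652-135177990, plus strand), Mef2c (chr13:83504034-83667080, plus strand) and Mef2d (chr3:88142372-88172086, plus strand) encode the transcription factors. These positions are from an annotation of GRCm38, one build before the GRCm39 build named in the submitters' processing notes.

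The promoters of 4 members are shown because the RUNX proteins bind DNA at short motifs and these genes include both RUNX2 itself and the products with the largest tissue differences. Each window is RefSeq sequence on GRCm38.p6, read 5′ to 3′ on the gene's own strand, and spans the start of transcription, most of it upstream; positions below count from that start. Capitals mark every match on either strand to 5 motifs, which are RUNX (TGTGGT), AP-1 (TGACTCA), MEF2 (CTANNNNTAG), the TATA box (TATAAA) and the hypoxia factor core (ACGTG). No motif contains another. The windows are chr10:34389731-34390030 plus strand for Col10a1, chr9:7272264-7272563 plus strand for Mmp13, chr5:104434861-104435160 plus strand for Spp1 and chr17:44814578-44814877 minus strand for Runx2.
Col10a1: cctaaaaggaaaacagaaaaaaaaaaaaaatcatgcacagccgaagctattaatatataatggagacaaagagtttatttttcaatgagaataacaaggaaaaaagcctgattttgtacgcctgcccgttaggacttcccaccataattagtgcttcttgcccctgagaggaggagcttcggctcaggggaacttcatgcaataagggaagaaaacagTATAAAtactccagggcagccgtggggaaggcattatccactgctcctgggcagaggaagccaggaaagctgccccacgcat
Mmp13: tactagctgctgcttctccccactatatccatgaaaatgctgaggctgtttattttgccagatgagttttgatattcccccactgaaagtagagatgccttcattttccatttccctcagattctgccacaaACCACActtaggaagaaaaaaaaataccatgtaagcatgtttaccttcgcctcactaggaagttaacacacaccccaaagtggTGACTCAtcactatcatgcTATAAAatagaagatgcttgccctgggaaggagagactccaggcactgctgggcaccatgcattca
Spp1: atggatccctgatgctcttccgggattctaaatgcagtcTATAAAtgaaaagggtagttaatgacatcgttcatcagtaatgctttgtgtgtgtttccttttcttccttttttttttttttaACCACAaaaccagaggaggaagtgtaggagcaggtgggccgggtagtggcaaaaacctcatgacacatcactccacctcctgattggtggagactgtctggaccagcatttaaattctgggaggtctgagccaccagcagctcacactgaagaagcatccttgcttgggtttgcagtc
Runx2: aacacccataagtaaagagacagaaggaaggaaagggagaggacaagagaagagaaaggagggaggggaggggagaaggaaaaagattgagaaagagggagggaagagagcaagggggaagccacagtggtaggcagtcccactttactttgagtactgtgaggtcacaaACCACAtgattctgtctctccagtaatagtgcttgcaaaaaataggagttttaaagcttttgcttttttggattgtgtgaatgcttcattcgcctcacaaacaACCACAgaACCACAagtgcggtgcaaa
The Col10a1 window held a TATA box starting at base -32 and no RUNX motif. The Mmp13 window held a RUNX motif at -118, an AP-1 motif at -35 and a TATA box at -16. The Spp1 window held the letters of the TATA box at -211 and a RUNX motif at -128, and the Runx2 window held 3 RUNX motifs, at -80, 24 and 32. The RefSeq table holds 15 windows of 9 members. A RUNX motif was in 4 of these windows (1 each of Mmp13, Runx2, Runx3 and Spp1), against 16.8% of 32851 windows of all genes. The TATA letters, counted on either strand and at any position, were in 6 of 15 windows against 13.6% of all windows. Their matches in Mef2c and Alpl were on the opposite strand. The AP-1 motif was in 1 against 5.2%, the hypoxia core in 1 (a second window of Vegfa) against 19.6%, and the MEF2 motif in 0 against 3.69%. Such a match describes letters and does not show binding.

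Library totals ran from 4185557 to 25104484 estimated counts. The study left out control hip cap replicate 4 (HC4) and 50 MPa hip cap replicate 2 (H502) as apparent outliers. That choice was followed here, so tests used 22 libraries. All 10 chondrocyte markers had counts in every library. Their summed level was 22260 to 78920 CPM (counts relative to library size, scaled by trimmed mean of M values) in the hip cap libraries tested. It was 9034 CPM in HC4, 12870 CPM in H502 and 1942 to 5142 CPM in metatarsals. Skeletal muscle markers summed to 9.51 to 46.3 CPM in the hip cap libraries tested and 458 to 2597 CPM in metatarsals. Osteoclast markers summed to 392 to 1832 CPM and 111 to 163 CPM in the same libraries. Of all genes tested, 14.6%, 18.8% and 10.6% were higher in hip caps at 0, 5 and 50 MPa and 16.4%, 19.2% and 9.86% lower. Of 8 osteoblast markers tested, 4, 6 and 4 were higher in hip caps at 0, 5 and 50 MPa and 1, 0 and 1 lower. Of 9 osteoclast markers tested, 3, 8 and 6 were higher and 0 lower. Of 10 macrophage markers, 0, 4 and 1 were higher and 1, 0 and 0 lower, of 9 endothelial markers 1 was lower at 0 MPa, and of 10 muscle markers 10, 9 and 8 were lower. The metatarsal libraries thus carried chondrocyte markers at a lower level, beside muscle RNA. How far the mix of cells sets the members' differences was not tested, and in such bulk samples fewer cells of a type cannot be told from less RNA per cell.

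Within hip caps, the matrix products led the members in level. Per kilobase of the longest annotated transcript, the median level over 10 hip cap libraries was 1644 CPM per kilobase for Spp1, 1566 for Col10a1, 333 for Mmp13 and 199 for Alpl, followed by 60.6 for Panx3, 50.0 for Vegfa, 41.1 for Runx2, 31.2 for Mef2c, 16.8 for Mef2d and 11.0 for Runx3. The lowest Col10a1 library (816 CPM per kilobase) lay above the highest Mmp13 library (635), the lowest Alpl library (114) above the highest Panx3 library (106), and the lowest Mef2c library (21.6) above the highest Mef2d library (21.4). Spp1 and Col10a1 overlapped, as did Mmp13 and Alpl, the neighbours from Panx3 to Mef2c, and Mef2d and Runx3. With the mean transcript length, Alpl (635 CPM per kilobase) stood above Mmp13 (333), and Panx3 (109) below Vegfa (140) and Runx2 (119).

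In metatarsals the order began with Vegfa, at a median of 70.3 CPM per kilobase over 12 libraries, and ended with Col10a1 at 0.626. Vegfa did not overlap the next gene, Spp1, whose median level was 24.5 CPM per kilobase, and Spp1 did not overlap Mef2d. With the mean transcript length, Mef2d (35.5 CPM per kilobase) stood above Spp1 (34.8). Mef2d (13.0), Mef2c (11.8), Alpl (9.72), Runx2 (6.78), Runx3 (4.01), Panx3 (3.29) and Mmp13 (3.25 CPM per kilobase) followed, and of these neighbours only Runx2 and Runx3 did not overlap. The hip cap and metatarsal orders thus placed Col10a1 and Mmp13 at opposite ends, as the plot of levels by library shows.

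**Figure D1:**
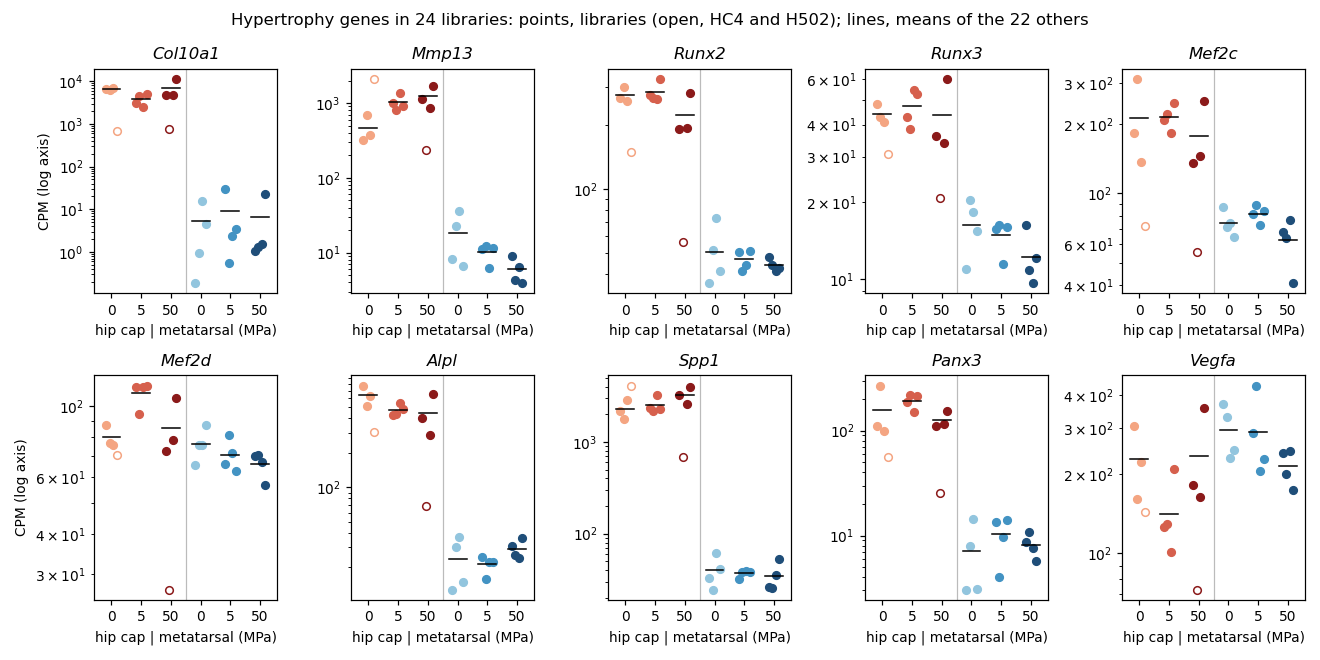
Level of each member in CPM (log axis) in the 24 libraries, by tissue and pressure in MPa; each point is a library, lines are the means of the 22 libraries tested, and open points are HC4 and H502. Col10a1 lay between 2554 and 11450 CPM in the 10 hip cap libraries tested and between 0.191 and 30.6 CPM in the 12 metatarsal libraries, whereas Vegfa overlapped between the tissues.

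Type X collagen RNA separated the tissues by the widest margin. Col10a1 was at 6493, 6328 and 7005 CPM in control hip caps, at 3128, 4468, 2554 and 5079 CPM at 5 MPa and at 4722, 4677 and 11450 CPM at 50 MPa. In metatarsals it was at 0.191, 0.963, 15.3 and 4.48 CPM in controls, at 30.6, 0.541, 2.41 and 3.53 CPM at 5 MPa, and at 1.06, 1.34, 1.502 and 22.7 CPM at 50 MPa. Those metatarsal values rested on 1 to 682 counts, and 1 library in each group held most of them. The log2 fold change, hip cap over metatarsal, was 9.64 (SE 2.55, adjusted p = 0.00994) at 0 MPa, 8.67 (SE 1.47, adjusted p = 0.000255) at 5 MPa and 9.10 (SE 2.13, adjusted p = 0.00644) at 50 MPa by edgeR's quasi-likelihood test. Without control metatarsal replicate 1, which had 1 Col10a1 count, the difference at 0 MPa was 5.88 (adjusted p = 0.131). It was 14.97 (SE 3.38) without control hip cap replicate 3 and 14.95 (SE 3.35) without 50 MPa metatarsal replicate 4, and without the latter the difference at 50 MPa was 17.28 (SE 3.84), so its size at 0 and 50 MPa rested on single libraries.

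The collagenase and the mineral-associated products were also higher in hip caps at every pressure. Mmp13 was at 322, 686 and 370 CPM in control hip caps and at 8.23, 22.9, 36.1 and 6.64 CPM in control metatarsals. Its log2 fold change between the tissues was 5.51 (SE 0.73, adjusted p = 2.17e-05) at 0 MPa, 6.63 (SE 0.51) at 5 MPa and 8.54 (SE 0.83) at 50 MPa. Spp1 was at 2178, 1774 and 2897 CPM in control hip caps and at 32.5, 24.6, 61.9 and 40.8 CPM in control metatarsals, a log2 fold change of 5.67 (SE 0.40, adjusted p = 2.87e-09) at 0 MPa, then 6.08 at 5 MPa and 6.12 at 50 MPa. The lowest hip cap library tested (1774 CPM) of Spp1 lay above the highest metatarsal library (61.9 CPM), as did H502 (692 CPM), which was left out. Alpl was at 774, 519 and 628 CPM in control hip caps and at 12.8, 30.0, 36.7 and 14.8 CPM in control metatarsals. Its log2 fold change was 5.05 (SE 0.49, adjusted p = 3.36e-07) at 0 MPa, 4.48 at 5 MPa and 3.95 at 50 MPa. Osteoblasts also make Spp1 and Alpl. Osteoblast markers summed to 2124 to 3727 CPM in 9 of the 10 hip cap libraries tested and to 10110 CPM in 5 MPa replicate 3. In metatarsals they summed to 3439 to 6391 CPM. In controls, mean Col1a1 and Col1a2 were 665 and 721 CPM in hip caps and 3115 and 1342 CPM in metatarsals. Ibsp (1491 and 100.5 CPM), Sp7 (84.0 and 11.9 CPM) and Dmp1 (10.3 and 1.34 CPM) went the other way. Of 8 osteoblast markers tested at 0 MPa, 4 were higher in hip caps and 1 lower. The part of osteoblasts in the Spp1 and Alpl differences was not tested.

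Panx3 was at 110, 269 and 98.5 CPM in control hip caps and at 3.06, 7.92, 14.5 and 3.09 CPM in control metatarsals. The groups did not overlap, and the log2 fold change was 5.20 (SE 0.78, adjusted p = 9.87e-05) at 0 MPa, 4.21 at 5 MPa and 4.83 at 50 MPa.

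The transcription factor genes differed between the tissues by less than Col10a1, Mmp13, Spp1, Alpl and Panx3. Runx2, a driver of both hypertrophy and bone formation, was at 266, 300 and 256 CPM in control hip caps and at 36.4, 51.8, 72.8 and 41.4 CPM in control metatarsals, a log2 fold change of 2.71 (SE 0.26, adjusted p = 1.45e-07). Runx3, which acts beside Runx2 in chondrocytes, was at 48.1, 42.6 and 41.0 CPM against 10.9, 20.3, 18.2 and 15.4 CPM, a log2 fold change of 1.73 (SE 0.30, adjusted p = 0.000197). Mef2c, an activator of Col10a1 and also a gene of skeletal muscle, was at 183, 314 and 137 CPM against 87.1, 71.5, 74.6 and 64.5 CPM, a log2 fold change of 1.59 (SE 0.26, adjusted p = 7.92e-05). All 3 kept the groups apart and passed again at 5 MPa, where the log2 fold changes were 2.60, 1.66 and 1.39, and at 50 MPa, where they were 2.53, 2.02 and 2.06. The call at 0 MPa was lost for Runx3 without control metatarsal replicate 1 (1.21, adjusted p = 0.0774) and for Mef2c with scaling by library size alone (0.67, adjusted p = 0.0859) and with libraries of run 1 only (1.56, adjusted p = 0.158). Within run 1 the Mef2c call at 50 MPa was lost as well (2.15, adjusted p = 0.0632).

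Mef2d, a second MEF2 factor, was among the members with the smallest differences. It was at 87.2, 76.9 and 75.6 CPM in control hip caps and at 65.7, 75.7, 75.5 and 87.5 CPM in control metatarsals, and these groups overlapped. The log2 fold change was 0.28 (95% interval -0.09 to 0.65, adjusted p = 0.229) at 0 MPa, 0.64 (SE 0.12, adjusted p = 0.000265) at 5 MPa and 0.61 (SE 0.18, adjusted p = 0.0213) at 50 MPa. The call at 50 MPa was lost without hip cap control replicate 3, 50 MPa hip cap replicate 4, metatarsal control replicate 1 or 50 MPa metatarsal replicate 4, with values of 0.43 to 0.63, with all 24 libraries (0.28, adjusted p = 0.614) and with libraries of run 1 only (0.63, adjusted p = 0.45). Scaling by library size alone, which moved the median of all genes from -0.08 to -0.96 at 0 MPa, turned the Mef2d differences to -0.64 at 0 MPa and -0.38 at 50 MPa and brought that at 5 MPa to 0.01.

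Vegfa was the only member that passed as higher in hip caps at none of the 3 pressures. It was at 304, 161 and 222 CPM in control hip caps and at 371, 328, 230 and 248 CPM in control metatarsals. At 5 MPa the hip caps were at 126, 130, 101 and 209 CPM and the metatarsals at 288, 434, 206 and 228 CPM. The log2 fold change was -0.40 (95% interval -1.23 to 0.44, adjusted p = 0.476) at 0 MPa, -1.03 (SE 0.29, adjusted p = 0.0088) at 5 MPa and 0.22 (95% interval -0.73 to 1.17, adjusted p = 0.793) at 50 MPa. The groups overlapped at all 3 pressures, and the call at 5 MPa was lost without 5 MPa metatarsal replicate 2 (-0.70, adjusted p = 0.0591).

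At 0 MPa, 8 of 10 members passed as higher in hip caps and 0 as lower, where 31% of all 21283 genes tested passed, 14.6% as higher and 16.4% as lower. At 5 MPa 9 passed as higher and 1 as lower, against 38.1% of all genes, 18.8% as higher and 19.2% as lower. At 50 MPa 9 passed as higher and 0 as lower, against 20.4% of all genes, 10.6% as higher and 9.86% as lower. Groups did not overlap for 8, 9 and 9 members, against 42.4%, 40.8% and 39.9% of all genes. The median log2 fold change of the members was 3.88, 3.40 and 3.24 at the 3 pressures, while that of all genes was -0.08, -0.08 and -0.01. Only at 5 MPa did all 8 libraries share a library type and, by the run assignment used here, a sequencing run.

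**Figure D2:**
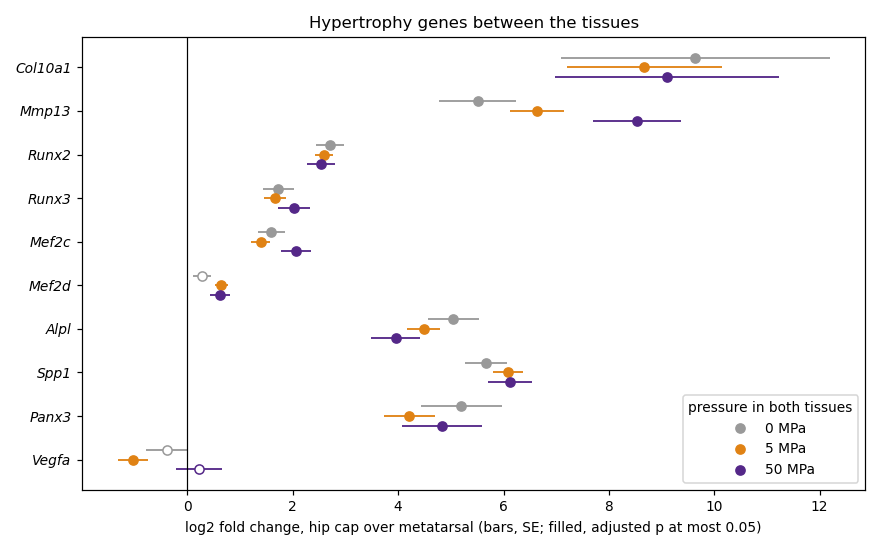
Log2 fold change of each member, hip cap over metatarsal, at 0, 5 and 50 MPa; bars are standard errors and filled points have an adjusted p of at most 0.05. The products from Col10a1 to Panx3 lie between 3.95 and 9.64, the RUNX genes and Mef2c between 1.39 and 2.71, and Mef2d and Vegfa between -1.03 and 0.64.

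Other genes of the programme were compared with the members. For each list, the shares of all genes tested were 14.6%, 18.8% and 10.6% higher in hip caps at 0, 5 and 50 MPa. The shares lower were 16.4%, 19.2% and 9.86%. Of 18 further drivers of hypertrophy, 10 were higher and 1 lower in control hip caps, 14 higher and 0 lower at 5 MPa, and 10 higher and 0 lower at 50 MPa, with medians of 1.08, 1.13 and 1.41 on the log2 scale. Ihh, the hedgehog ligand of prehypertrophic cells, led them at 62.4 to 114 CPM in control hip caps and 0.463 to 1.72 CPM in control metatarsals (log2 fold change 6.38, SE 0.73). Ccn2, a matricellular growth factor gene, had a log2 fold change of 4.28 (SE 0.37), Foxa2 4.72 (SE 0.43) and Wnt5b 3.94 (SE 0.54).

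The brakes on hypertrophy were split, with more higher than lower in hip caps. Of 15, 9 were higher and 3 lower in control hip caps, 9 and 3 at 5 MPa, and 6 and 3 at 50 MPa, with medians of 0.87, 0.54 and 0.41. Pth1r, the receptor for parathyroid hormone-related protein, had a log2 fold change of 4.57 (SE 0.41) at 0 MPa, its ligand gene Pthlh 2.92 (SE 0.47), Fgfr3 3.53 (SE 0.35) and Sox9 2.55 (SE 0.32). Twist1 was lower in hip caps, at -1.72 (SE 0.21) at 5 MPa and -2.14 (SE 0.29) at 50 MPa.

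Of 16 mineralization genes, 15 were tested, and 12 were higher and 0 lower at 0 MPa, 13 and 1 at 5 MPa, and 12 and 0 at 50 MPa, with medians of 2.02, 2.09 and 2.11. Mepe, a phosphoprotein gene of mineralized matrix, had a log2 fold change of 7.58 (SE 1.27) at 0 MPa, Ibsp, which encodes bone sialoprotein, 4.61 (SE 0.64), and Smpd3, a sphingomyelinase gene needed for mineralization, 4.61 (SE 0.71). The bone gene Bglap had 5.63 (SE 1.40), on 0 to 2 counts in control metatarsals and 12 to 21 in control hip caps. Mepe and Bglap had low means over the libraries tested, 2.4 and 1.34 CPM.

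Matrix turnover and vessel entry genes split. Of 15, those higher in hip caps numbered 3 at each pressure and those lower 6 at 0 MPa, 4 at 5 MPa and 5 at 50 MPa, with medians of -0.95, -0.16 and -0.07. In either direction, 31%, 38.1% and 20.4% of all genes passed at these pressures. Mmp9, an osteoclast gelatinase, had a log2 fold change of 3.82 (SE 0.69) at 0 MPa and Timp1 2.49 (SE 0.39), whereas the membrane collagenase Mmp14 was at -2.39 (SE 0.31) and Mmp2 at -2.18 (SE 0.30).

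Of 14 hypoxia response genes, the group in which Vegfa is often counted, 2 were higher and 3 lower at 0 MPa, 1 and 4 at 5 MPa, and 4 and 1 at 50 MPa, with medians of 0.40, -0.09 and 0.70. In either direction, 31%, 38.1% and 20.4% of all genes passed, so the counts at 0 and 5 MPa lay near the share of all genes. At 0 MPa Car9, a carbonic anhydrase, was lower in hip caps by -3.59 (SE 0.70), Ankrd37 by -1.73 (SE 0.41) and Egln3 by -1.55 (SE 0.32), while Adm was higher at 1.54 (SE 0.51).

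All 10 chondrocyte markers were higher in hip caps at each pressure, with median log2 fold changes of 3.77, 2.96 and 3.22, close to the medians of the hypertrophy genes. Type II collagen RNA, Col2a1, which marks chondrocytes that are not hypertrophic, had log2 fold changes of 4.77 (SE 0.61), 4.45 (SE 0.41) and 3.62 (SE 0.59).

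In hip caps, no member passed the test at 5 or 50 MPa, and Mmp13 and Alpl had the lowest p-values at 50 MPa. At 5 MPa 0 of 10 members passed against 0.0235% of all genes, 0 had an unadjusted p under 0.05, and 0 passed with DESeq2. Of the 21283 genes, 3314 had an unadjusted p under 0.05 there and DESeq2 called 577. At 50 MPa 0 of 10 passed against 5.5% of all genes, 1 (Mmp13) had an unadjusted p under 0.05, and 0 passed with DESeq2, where 4953 genes had an unadjusted p under 0.05 and DESeq2 called 2455. Both comparisons used the same 3 control libraries. Between 50 and 5 MPa 0 members passed, 0 had an unadjusted p under 0.05, and 0 passed with DESeq2, while 0% of all genes passed (1073 had an unadjusted p under 0.05, and DESeq2 called 40).

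**Figure D3:**
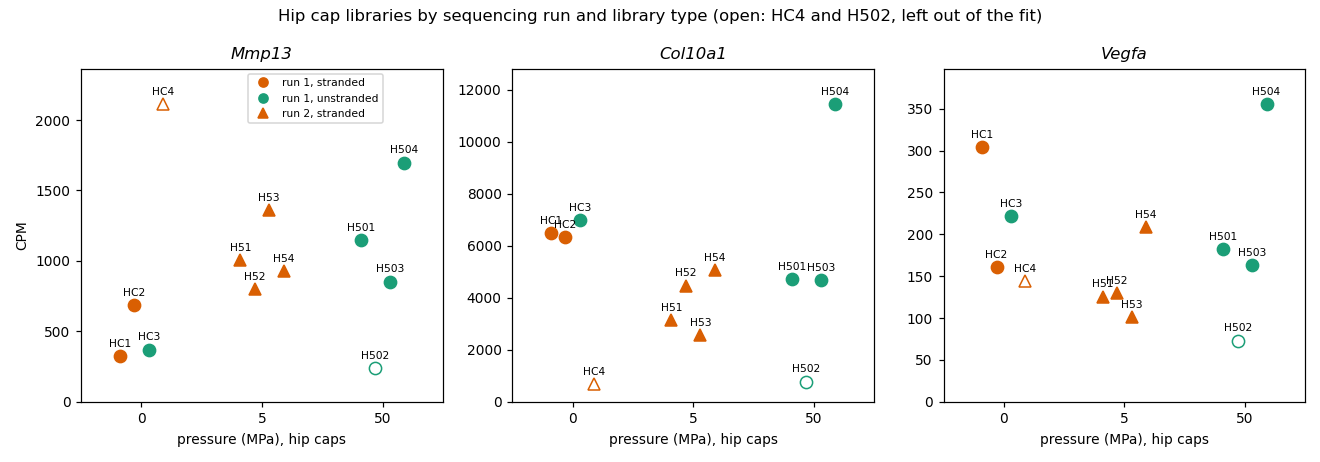
Level of Mmp13, Col10a1 and Vegfa in CPM in each of the 12 hip cap libraries by pressure in MPa; shapes give the sequencing run, colours the library type, and open symbols are HC4 and H502, left out of the fit. All 4 libraries at 5 MPa are run 2 and stranded, all 4 at 50 MPa are run 1 and unstranded, and control HC4 has the highest Mmp13 (2112 CPM) and the lowest Col10a1 (687 CPM) in the plot.

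Mmp13 was higher in every pressed hip cap library tested than in the 3 controls. It was at 322, 686 and 370 CPM in controls, at 1008, 799, 1360 and 925 CPM at 5 MPa, and at 1147, 853 and 1698 CPM at 50 MPa. The control HC4, at 2112 CPM, exceeded all of them, and the 50 MPa library H502, at 237 CPM, lay under all 3 controls tested. The log2 fold change at 50 MPa was 1.47 (SE 0.67, 95% interval 0.04 to 2.90, unadjusted p = 0.0418, adjusted p = 0.195). It was 0.62 without control replicate 3, the only unstranded control. Fitted without terms for run and library type, it was 1.43 (SE 0.38, adjusted p = 0.304) among the hip caps of run 1 alone. In hip caps alone with HC4 put back, again without these terms, it was 0.43 (SE 0.57). Both of these hip cap fits were chosen after seeing the data. At 5 MPa the log2 fold change was 0.12 (SE 0.68, 95% interval -1.35 to 1.58, adjusted p = 0.957) with terms for run and library type and 1.16 (SE 0.47, adjusted p = 0.109) without them. No hip cap control tested was from run 2, so in that fit the run term came from metatarsals, where control replicate 1 carried a weight of 0.56 and 50 MPa replicate 4 a weight of 0.44. Pressure of 5 MPa and sequencing run cannot be told apart in hip caps.

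Col10a1 was lower at 5 MPa in all 4 hip cap libraries (2554 to 5079 CPM) than in the 3 controls (6328 to 7005 CPM). At 50 MPa 2 libraries were below the controls and the third, replicate 4, was above them at 11450 CPM. The fitted log2 fold changes were -0.19 (SE 2.59, adjusted p = 0.984) at 5 MPa and -2.05 (SE 2.28, adjusted p = 0.631) at 50 MPa. Without control replicate 3 they were -5.86 and -9.11, and without metatarsal control replicate 1 they were 3.30 and -0.07. With hip caps fitted alone the values were -0.75 (SE 0.43, adjusted p = 0.46) and 0.00 (SE 0.59).

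Alpl was at 774, 519 and 628 CPM in control hip caps, at 431, 442, 551 and 487 CPM at 5 MPa and at 405, 287 and 654 CPM at 50 MPa. Its log2 fold change was -0.80 (SE 0.47, adjusted p = 0.413) at 5 MPa and -0.88 (SE 0.43, unadjusted p = 0.0522, adjusted p = 0.22) at 50 MPa. Mef2d was at 115, 94.6, 115 and 116 CPM at 5 MPa, above all controls, and was the only member to pass at 5 MPa when run and library type were not modelled (log2 fold change 0.46, adjusted p = 0.0409), against 0.19 (adjusted p = 0.66) with both terms. Groups did not overlap for 3 members at 5 MPa (Col10a1, Mmp13 and Mef2d), against 16.2% of all genes, and for 1 at 50 MPa (Mmp13), against 15.8%. With HC4 and H502 put back, only Mef2d at 5 MPa kept the groups apart.

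The remaining members gave smaller differences. Leaving out Col10a1 and Mmp13, the log2 fold changes ran from -0.80 (Alpl) to 0.27 (Spp1) at 5 MPa and from -0.88 (Alpl) to 0.42 (Mef2c) at 50 MPa, with standard errors up to 0.75 and 0.68. The 10 members had a median log2 fold change of -0.23 at 5 MPa and -0.01 at 50 MPa, and all genes 0.01 and 0.02.

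In the fit used here 1170 genes passed at 50 MPa in hip caps, but 58 did with scaling by library size alone and 2 with all 24 libraries. Control replicate 3, the only unstranded control, carried a weight of -0.76 in that comparison. Whether the genes named below kept their calls in the other fits was not examined. Beside the members, 2 of 18 further drivers passed at 50 MPa in hip caps, where 5.5% of all genes passed. Sp7, the osterix gene, was lower at -1.08 (SE 0.29, adjusted p = 0.0341), and Mef2a was higher at 0.88 (SE 0.24, adjusted p = 0.0397), although its controls (106 to 235 CPM) spanned its pressed libraries (159 to 202 CPM). Of 15 brakes, Sox9 at -1.23 (SE 0.31, adjusted p = 0.028) and Tgfbr2 at -0.59 (SE 0.16, adjusted p = 0.0354) were lower. No mineralization, matrix turnover or hypoxia gene passed at 50 MPa, and no gene of these 5 lists or of the marker lists passed at 5 MPa. Of the chondrocyte markers, Comp at -1.35 (SE 0.38) and Sox9 fell at 50 MPa. The sum of all 10 chondrocyte markers was 49600 to 78920 CPM in the controls tested, 22260 to 53660 CPM at 5 MPa and 33100 to 38010 CPM at 50 MPa. The control left out, HC4, was at 9034 CPM, below every pressed library tested, and H502 was at 12870 CPM. The osteoclast marker sum was 392 to 592 CPM in controls, 624 to 1832 CPM at 5 MPa and 607 to 1808 CPM at 50 MPa, so it was higher in every pressed library tested than in the 3 controls tested, as Mmp13 was. Of the libraries left out, the control HC4 had an osteoclast sum of 4673 CPM, above every pressed library, and the 50 MPa library H502 had 276 CPM, below the controls tested. Of the other marker lists, 1 of 8 tested osteoblast genes (Sp7, lower), 0 of 9 tested osteoclast genes, 1 of 10 macrophage genes (Cd68, higher at 1.76), 0 of 9 endothelial genes and 1 of 10 skeletal muscle genes (Ttn, higher at 1.95) passed. Their part in the Mmp13 difference was not tested.

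**Figure D4:**
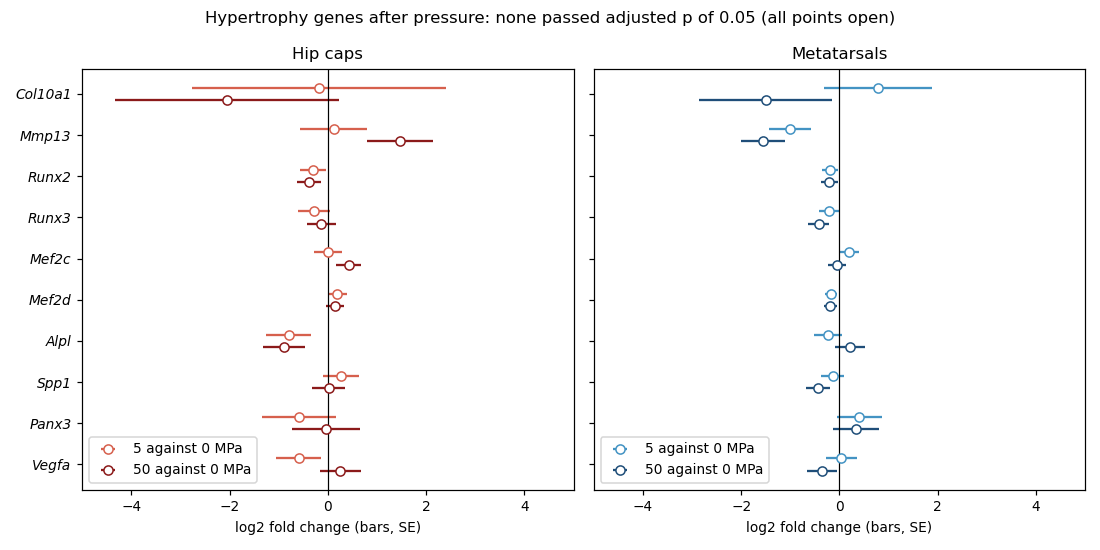
Log2 fold change of each member at 5 and 50 MPa against 0 MPa in hip caps (left) and metatarsals (right); bars are standard errors, and all points are open because none had an adjusted p of at most 0.05. At 50 MPa, Mmp13 lies at 1.47 for hip caps and at -1.56 for metatarsals.

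In metatarsals, no member passed either. At 5 MPa 0 of 10 passed with edgeR or DESeq2 and 1 (Mmp13) had an unadjusted p under 0.05. Of all genes 0% passed (733 had an unadjusted p under 0.05, and DESeq2 called 13). At 50 MPa 0 of 10 passed with either tool and 1 (Mmp13) had an unadjusted p under 0.05. Of all genes 0% passed (872 had an unadjusted p under 0.05, and DESeq2 called 9). Between 50 and 5 MPa 0 members and 0% of all genes passed by both tools, with 0 members and 185 genes at an unadjusted p under 0.05. The groups overlapped for every member, where 2.88% of all genes at 5 MPa and 4.48% at 50 MPa had groups that did not.

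Mmp13 in metatarsals was at 8.23, 22.9, 36.1 and 6.64 CPM in controls, at 11.1, 12.4, 6.30 and 11.35 CPM at 5 MPa and at 9.12, 4.36, 6.37 and 3.96 CPM at 50 MPa. Control replicates 2 and 3 stood above all 8 pressed libraries, while control replicates 1 and 4 lay among them. The log2 fold change was -1.01 (SE 0.42, unadjusted p = 0.03, adjusted p = 1) at 5 MPa and -1.56 (SE 0.45, unadjusted p = 0.00289, adjusted p = 1) at 50 MPa, and -1.06 at 50 MPa without control replicate 3. Within run 2 the value at 50 MPa was -1.75 (SE 0.50, adjusted p = 0.569). The other members, Col10a1 aside, lay between -0.23 (Alpl) and 0.41 (Panx3) at 5 MPa and between -0.43 (Spp1) and 0.33 (Panx3) at 50 MPa. Col10a1 gave 0.78 (SE 1.10) and -1.50 (SE 1.36). The members' median was -0.15 at 5 MPa and -0.29 at 50 MPa, and that of all genes 0.00 at both. No gene of the other lists, markers included, passed in metatarsals.

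The response of hip caps was then tested against that of metatarsals. At 50 MPa the log2 fold change of Mmp13 was 3.03 higher in hip caps (SE 0.72, 95% interval 1.48 to 4.58, unadjusted p = 0.000642, adjusted p = 0.0648), just outside the threshold. DESeq2 gave 3.05 (adjusted p = 0.000375), keeping only genes with 10 counts in every library gave 3.01 (adjusted p = 0.029), and leaving out hip cap control replicate 3 gave 2.35 (adjusted p = 0.343). With all 24 libraries the value was 2.37 (adjusted p = 0.246). Alpl went the other way, at -1.10 (SE 0.47, unadjusted p = 0.0305, adjusted p = 0.212). At 50 MPa 0 of 10 members passed, against 0.442% of all genes, 2 had an unadjusted p under 0.05, and 1 passed with DESeq2, where 4051 of 21283 genes had an unadjusted p under 0.05 and DESeq2 called 1349. At 5 MPa 0 passed, against 0.0188% of all genes, 0 had an unadjusted p under 0.05, and 0 passed with DESeq2, where the numbers over all genes were 2543 and 128. Ttn, a muscle gene, was the only gene of the other lists whose response at 50 MPa passed as different (2.76, adjusted p = 0.0397). For the 8 members other than Col10a1 and Mmp13, the difference in response ran from -0.99 (Panx3) to 0.41 (Spp1) at 5 MPa.

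Across libraries, the genes most like Col10a1 in log2 CPM were those that separate the tissues. Over all 22 libraries the 5 closest of 14303 genes ranked were Pcsk6 and Rbp4 (r = 0.987 each) and Frzb, Loxl4 and Gpx3 (r = 0.986 each). Over the 10 hip cap libraries they were Tmem132b (r = 0.969), Ccpg1 (r = 0.953), Tasp1 (r = 0.952), Trf (r = 0.949) and P4ha2 (r = 0.947), so no gene was in both sets of 5. Over all 10 hip cap libraries, Vegfa had the highest correlation with Col10a1 among the members (Pearson r = 0.897, Spearman rho = 0.915, n = 10), and r was 0.738 over 8 libraries once the 2 farthest from the median of Col10a1 were left out. Alpl gave r = 0.456 over 10 libraries and 0.624 over those 8, and Mmp13 gave r = -0.202 and -0.76. Over 22 libraries Vegfa gave r = -0.464 with Col10a1, where the other members gave 0.618 to 0.983. These correlations describe libraries that share run, library type and pressure group.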

How the data were processed

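RNA from 24 pooled explant samples was depleted of ribosomal RNA and sequenced; the authors state that it was partly degraded. The submitters' processing notes name Trim Galore 0.6.5, kallisto and GRCm39. The deposited table holds estimated counts per gene from the authors' transcript quantification, which were rounded here; 0 columns belonged to other samples. Genes were filtered with filterByExpr (21283 kept), scaled by trimmed mean of M values and tested with edgeR 4.0.16 (robust quasi-likelihood F test, two-sided, Benjamini-Hochberg over all genes, threshold 0.05) in R 4.3.3, over 22 libraries with terms for group, sequencing run and library type, the study's design. The run of each library was read from a colour strip in the study's sample heat map and is less certain than the library type, which is labelled; its run sizes do not match the numbers of libraries per sequencing kit in the methods, so each statement on run rests on that reading. Correlations used log2 CPM with a prior count of 2. DESeq2 1.42.0 was an alternative. Fits were tested on simulated data.

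The members and all gene lists were chosen with earlier results of these data known. Named genes were all members, up to 4 genes per list and comparison with the largest change among those past the threshold at 1 CPM or more, and the 5 genes most like Col10a1. Lists were further drivers, brakes, mineralization, matrix turnover and vessel entry, hypoxia, and markers of chondrocytes, osteoblasts, osteoclasts, macrophages, endothelium and skeletal muscle.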

Additional observations from a re-analysis of the deposited data

Results flagged for a closer look

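Of 60 sets of 4 libraries (10 members in 6 groups), 6 held a library set apart from the other 3 by Dixon's criterion, where chance marks about 5%. Col10a1 in hip cap control replicate 4 was at 687 CPM, below 6328 to 7005 CPM in the other controls, and this library was left out of the tests. In metatarsals Col10a1 was at 30.6 CPM in 5 MPa replicate 1, above 0.541 to 3.53 CPM in the others, and at 22.7 CPM in 50 MPa replicate 4, above 1.06 to 1.502 CPM. Runx2 was at 328 CPM in 5 MPa hip cap replicate 4 (others 264 to 274 CPM), Runx3 at 11.4 CPM in 5 MPa metatarsal replicate 3 (others 15.7 to 16.2 CPM) and Mef2d at 94.6 CPM in 5 MPa hip cap replicate 2 (others 115 to 116 CPM). What set these libraries apart was not tested.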

How the results depend on the processing

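37 alternatives were run, 22 of them leaving out 1 library. Counts of members called between the tissues stayed within 1.5 times of 8, 10 and 9, and the replicate block with run and library type gave 8, 10 and 9. Residual correlations between equally numbered libraries of different groups ran from -0.288 to 0.171. They kept effects of run and library type and were not compared with other pairs. These values therefore cannot tell whether equal replicate numbers paired the libraries. Pressure comparisons stayed at 0 members called, with these exceptions. Without batch terms 1 member passed at 5 MPa in hip caps (Mef2d). For the difference in response at 50 MPa, 1 member (Mmp13) passed with DESeq2 and with at least 10 counts in every library, and leaving out a library gave 0 to 1, with 1 without hip cap control replicate 2, 5 MPa hip cap replicate 3 or metatarsal control replicate 4. Among single members between the tissues, library sizes alone turned Mef2d to -0.64 (0 MPa) and -0.38 (50 MPa) and Vegfa to -0.93 (50 MPa). Vegfa at 50 MPa was also -0.15 with all 24 libraries. Leaving out 1 library moved Vegfa from -0.70 to 0.12 at 0 MPa and from -0.44 to 0.43 at 50 MPa. Under pressure in hip caps, Mmp13 at 5 MPa was -0.61 with all 24 libraries and -0.39 to 0.79 when 1 library was left out. Col10a1 at 5 MPa was 0.37 with library sizes alone, 0.13 without a filter, 1.52 with all 24 libraries, 1.62 with run only, and -5.86 to 3.30 when 1 library was left out. Col10a1 at 50 MPa was 0.07 without batch terms and with run only, and 0.00 with each tissue alone. Also without batch terms, it was 0.08 in hip caps of run 1 alone and 0.42 in hip caps with HC4, these last 2 settings being chosen after seeing the data. The causes were not tested. Of 2682 pressure values under alternatives, 204 had another sign and 6 passed. Mean transcript lengths moved 16 of 20 levels per kilobase by more than 1 SD. Depth limits Col10a1 most, with 1 to 682 counts in metatarsals.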
